A study of Arabidopsis thaliana with 42 samples.

Results

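The comparison was between seedlings of the Arabidopsis thaliana double mutant mtn1-1mtn2-1 and wild-type (WT) Col-0 seedlings, both grown on MS medium without spermidine, here called mock medium. It rests on 6 of the 42 samples of the series, 3 of each genotype, chosen by their genotype, tissue and medium labels. Plants were 14 days old and grown on half-strength MS plates in continuous light, and ground seedling tissue was pooled for each RNA sample and sequenced as polyA libraries. The other samples used here are seedlings of the same 2 genotypes on 100 µM spermidine, with 3 libraries each, and 3 mock libraries labelled as a second double mutant, mtn1-1mtn2-5. Each mutant is described in the labels by its 2 alleles only, so an effect of the line and an effect of the 2 genes cannot be told apart.

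MTN1 and MTN2 encode methylthioadenosine nucleosidases. Methylthioadenosine is the by-product left when S-adenosylmethionine is used to make the polyamines spermidine, spermine and thermospermine, nicotianamine and the ethylene precursor, and the nucleosidases start the cycle that returns its sulfur to methionine. Methylthioadenosine can inhibit the enzymes that form it.

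Both targeted genes were low in the mutant libraries. MTN1 (AT4G38800, chr4:18113161-18115176, minus strand, TAIR10.1) was at 5.93, 4.3 and 5.33 CPM (counts scaled to a common normalised library total) in the mutant libraries and at 104, 100 and 106 CPM in the WT libraries. MTN2 (AT4G34840, chr4:16606215-16608292, plus strand) was at 0.113, 0.112 and 0.129 CPM against 7.14, 7.12 and 6.82 CPM. Neither gene's mutant libraries overlapped the WT libraries. In the libraries labelled mtn1-1mtn2-5, MTN1 was at 4.46, 20.7 and 4.89 CPM, but MTN2 was at 9.19, 8.86 and 7.97 CPM, above every WT library (log2 fold change 0.30 ± 0.09 SE, adjusted p = 0.048). The MTN2 transcript was thus not reduced there, and its level does not check that label. Around MTN1, 1 of the 16 tested genes within 10 genes was higher (SAUR15) and 1 lower (the receptor-like kinase CRK26); SAUR15 lost its call in 2 and CRK26 in 4 of the 6 fits that left out a mock library. Of the 16 tested genes around MTN2, 1 was higher and 2 lower, which is 12.5% and 18.75% of the neighbours called against 15.7% of all tested genes.

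Of 25201 genes tested, 3964 were called different between the genotypes on mock medium (edgeR quasi-likelihood test, Benjamini-Hochberg adjusted p under 0.05), which is 15.7% of those tested. Higher in the mutant were 1917 genes (7.61%) and lower were 2047 (8.12%). By limma on log2(TPM + 1) the balance turned, with 2433 genes higher and 1770 lower. Most shifts were small, with a median change of 1.44-fold among the higher and 1.45-fold among the lower genes, and 991 genes (3.93%) changed at least 2-fold, 604 of them (2.4%) upward and 387 (1.54%) downward. The tail differed by direction, since 432 genes rose more than 4-fold and 61 fell more than 4-fold. By gene type, 301 of the rises and 2 of the falls of at least 2-fold were loci annotated as pseudogenes. Of 22642 tested protein-coding genes, 1462 were called higher (6.46%) and 2023 lower (8.93%). Among these coding genes 225 rose at least 2-fold (0.994%) and 373 fell at least 2-fold (1.65%). The number of calls depended on single libraries: it was 2213 without WT replicate 1, 2203 without WT replicate 2, 2609 without mutant replicate 1 and 2173 without mutant replicate 3. Each gene named below with a mock adjusted p under 0.05 kept its call and direction in every fit testing it, unless stated. Some genes named without a mock value were not checked, among them AT2G06670, AT2G13160, AT4G02314 and AT1G21313. Calls of single genes on spermidine or for the interaction were not checked in this way. Groups without overlap on mock medium were common. Among all 25201 tested genes, every mutant library was above every WT library for 4506 and below for 4323. In bulk tissue, fewer cells of a type and less RNA per cell cannot be told apart.

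**Figure D1:**
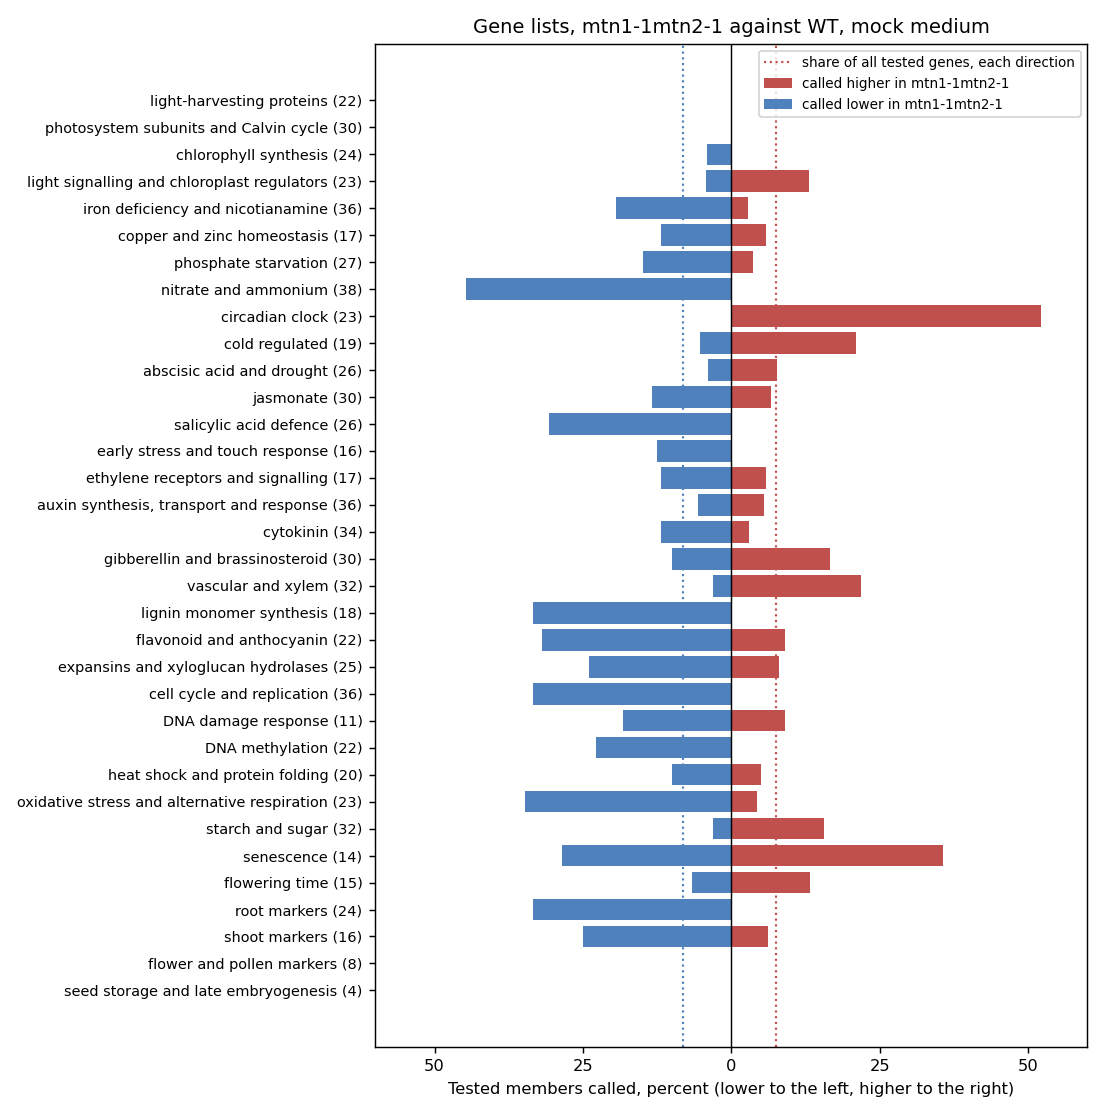
Share of tested members called higher (red, to the right) or lower (blue, to the left) in mtn1-1mtn2-1 on mock medium for each of 34 gene lists, with the number of tested members in brackets. Dotted lines mark the shares among all tested genes, 7.61% higher and 8.12% lower; the clock list reaches 52.2% higher and the nitrate and ammonium list 44.7% lower.

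The largest group of strong rises was made of loci that the reference annotates as pseudogenes. In the Arabidopsis annotation such loci include remnants of transposons and of duplicated genes, and most are kept silent by DNA methylation and related chromatin marks. The reference table gives most of these loci no symbol and does not say which are transposon remnants. The count table held 3903 pseudogene loci, and the number with more than 3 fragments was 626, 607 and 698 in the mutant libraries against 261, 251 and 255 in the WT libraries. All mutant libraries lay above all WT libraries, by 2.52-fold on average (two-sided exact permutation p = 0.1, the smallest that 3 against 3 libraries allow). Protein-coding genes passed the same limit in almost equal numbers, 21763, 21863 and 21845 in the mutant and 21762, 21746 and 21743 in WT. These did not overlap either (ratio 1.003, exact permutation p = 0.1). The same held for transcribed pseudogenes (ratio 1.05) and for long noncoding, other noncoding or antisense RNAs (ratio 1.06), so the types differ in the size of the gap. Library size was similar, at 43.7, 48.2 and 48.5 M fragments in the mutant and 145 to 161 M deposited units over both groups.

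Spermidine-grown seedlings, which are separate libraries, showed the same order with a smaller gap. There the mutant had 406, 440 and 412 pseudogene loci over 3 fragments and WT had 278, 287 and 258, a ratio of 1.53 with no overlap (exact p = 0.1). The mtn1-1mtn2-5 mock libraries had 280, 324 and 271, each above the WT mock libraries and below every mtn1-1mtn2-1 mock library. Summed over all pseudogene loci, expression was 1705, 1642 and 1803 CPM in the mutant on mock medium against 1218, 1239 and 1335 CPM in WT. On spermidine the same sums overlapped between genotypes, at 1401, 1572 and 1436 against 1431, 1491 and 1268.5 CPM. In the mtn1-1mtn2-5 mock libraries the sums were 834, 957 and 871 CPM, below every WT mock library.

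**Figure D2:**
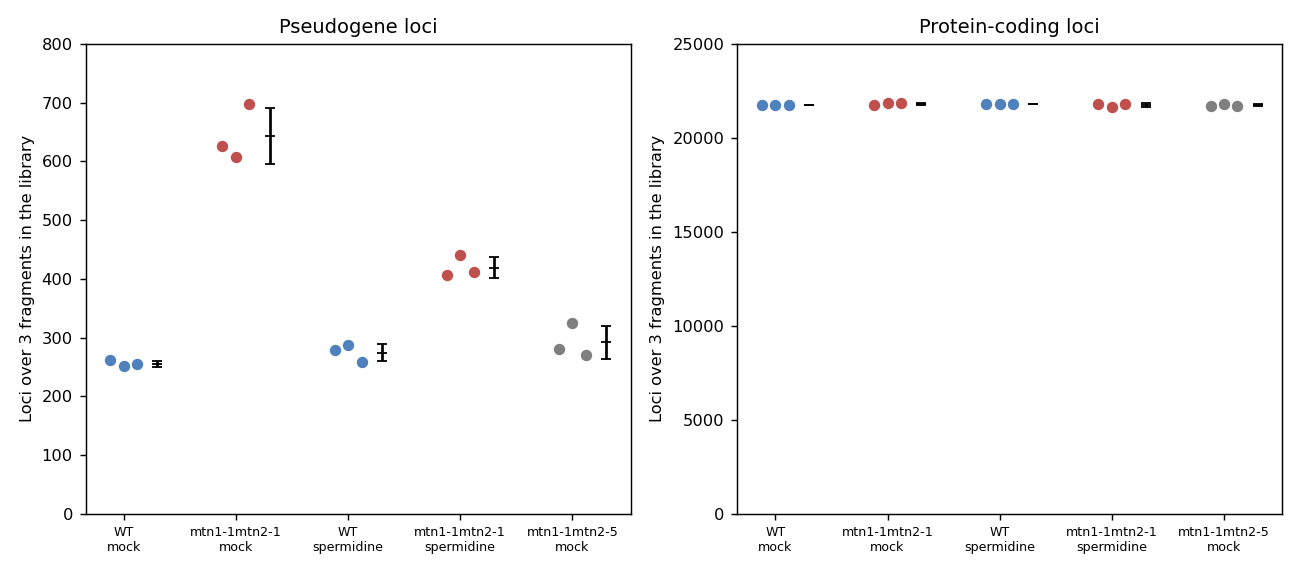
Number of pseudogene loci (left) and protein-coding loci (right) with more than 3 fragments in each seedling library; points are libraries, and the mark beside them is the mean with its SD over 3 libraries. Pseudogene loci number 607 to 698 in mtn1-1mtn2-1 on mock medium and 251 to 261 in WT, while the protein-coding counts differ little on an axis from 0.

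Gene by gene, 309 of the 679 pseudogene loci that passed the filter on low counts were called higher and 2 lower, and 301 of the 309 rose at least 2-fold. Many of these loci passed the filter through the mutant libraries, so their share is not set against that of other genes. Counted without that filter, 363 loci of any type were over 3 fragments in all 3 mutant libraries and at or under 3 in all 3 WT libraries. Of these, 263 were pseudogenes, 74 were protein-coding and 25 were noncoding RNAs. The reverse pattern held for 32 loci, among them 1 pseudogene. On spermidine 150 loci had the first pattern, and 103 loci had it on both media, which is 28.4% of the mock set and 68.7% of the spermidine set. Of 1008 tested long noncoding RNAs, 77 were called higher (7.64%), a share near the 7.61% over all tested genes, and 11 lower (1.09%, against 8.12%). Some of these RNAs may also have passed the filter through the mutant libraries, so both shares are descriptive only.

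A group of 15 pseudogene loci on 4 chromosomes, linked by at least 80% identity over at least 500 bases, shows the pattern in related sequences; it was chosen after its values were seen. Of its 11 tested loci, 9 were called higher. These 9 were at or near 0 CPM in the WT mock libraries and passed the filter on low counts through mutant libraries. The filter thus partly set that share, which only describes the group. In the alternative fits AT1G33130 lost its call in 5 of 14, AT4G04430 in 2 of 14 and AT1G42410 in 1 of 13. The stretch that these 9 loci share best is printed from TAIR10.1, 5′ to 3′ on each locus's own strand, with capitals where a base differs from AT1G33130.
AT1G33130 (chr1:12017435-12017494, minus strand): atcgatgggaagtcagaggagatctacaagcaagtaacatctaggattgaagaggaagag
AT1G42410 (chr1:15870288-15870347, plus strand): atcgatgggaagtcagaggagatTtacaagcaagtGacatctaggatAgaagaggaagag
AT2G06590 (chr2:2634127-2634186, plus strand): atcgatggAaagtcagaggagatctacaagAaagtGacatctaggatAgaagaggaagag
AT2G13310 (chr2:5525068-5525127, minus strand): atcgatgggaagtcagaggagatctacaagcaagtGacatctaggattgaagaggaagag
AT2G34130 (chr2:14410712-14410771, plus strand): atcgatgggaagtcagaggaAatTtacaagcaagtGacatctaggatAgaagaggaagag
AT4G04430 (chr4:2209635-2209694, minus strand): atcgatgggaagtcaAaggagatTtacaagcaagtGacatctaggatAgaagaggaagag
Across these 60 bases the 9 loci differ from AT1G33130 at up to 4 positions, and AT2G06670 repeats the letters of AT2G06590, as AT2G13160 and AT4G02314 repeat those of AT2G34130. AT2G34130 (MEE19) was at 1.43, 1.15 and 1.82 CPM in the mutant libraries and at 0, 0.00682 and 0.00654 CPM in WT (adjusted p = 0.00032). AT2G13310 was at 1.61, 0.924 and 1.23 CPM against 0 in each WT library (adjusted p = 0.0011), and it was called higher on spermidine as well. Of the 9 loci, 4 were called higher on spermidine and 5 were not, among them AT1G33130 (adjusted p = 0.37) and AT4G02314 (adjusted p = 0.15). AT2G14230, a locus of the group that WT libraries already held at 0.789, 0.409 and 0.262 CPM, was not called on mock medium (adjusted p = 0.13) but was called higher on spermidine (adjusted p = 0.0063). Reads from such similar copies can be assigned to the wrong member, so the rise is better read for the group than for one locus.

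Pseudogene loci called higher had a median length of 3285 bases, against 2675 bases for tested loci not called higher and 2050 for all pseudogene loci. A similar locus elsewhere was found for 70.6% of the loci called higher, 58.1% of tested loci not called higher and 70.4% of all pseudogene loci. These differences were not tested, and many of the called loci passed the filter through the mutant libraries. Of all 3903 pseudogene loci 7.92% were called higher. In the 4 intervals of 5 Mb that held most loci, 41 of the 640 loci between 10 and 15 Mb on chromosome 5, 41 of 619 in the same interval of chromosome 3, 38 of 536 in the first 5 Mb of chromosome 2 and 28 of 537 in the first 5 Mb of chromosome 4 were called higher. Those shares are 6.41%, 6.62%, 7.09% and 5.21%, and the share was 12.9% of 248 loci between 5 and 10 Mb on chromosome 2 and 12.8% of 179 between 15 and 20 Mb on chromosome 3.

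Among single transcripts, the noncoding RNA AT2G15555 (chr2:6785904-6786976, minus strand) was at 3.78, 3.31 and 3.72 CPM in the mutant and at 0 in all 3 WT libraries, at least 54.8-fold higher taking 3 fragments per library as the floor. The noncoding RNA AT1G67105 (chr1:25057479-25058264, plus strand) was at 139, 119 and 148 CPM against 1.75, 1.36 and 1.47 CPM, an 88.6-fold rise (log2 fold change 6.47 ± 0.36 SE, adjusted p = 4.8e-08). AT5G26270, which encodes an uncharacterized protein, was at 56.9, 58.2 and 66.5 CPM against 4.69, 4.47 and 4.09 CPM (log2 fold change 3.78 ± 0.16 SE, adjusted p = 1.7e-09). No mutant library of these 3 transcripts came near a WT library. They were also higher on spermidine, with AT1G67105 at a log2 fold change of 6.22 and AT5G26270 at 2.86. Against the same WT libraries, mtn1-1mtn2-5 differed by 5.68 for AT1G67105 and by 1.26 for AT5G26270 on the log2 scale.

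Some enzymes that place and maintain DNA methylation were lower. Of 22 tested members of that list, 5 fell (22.7%) and the other 17 were not called, and without WT replicate 2 or without mutant replicate 3 the count was 3. CMT3, a chromomethylase that methylates cytosines in CHG contexts, was at 19.1, 18.3 and 17.3 CPM in the mutant against 28.2, 26.8 and 27.1 CPM (log2 fold change -0.58 ± 0.08 SE, adjusted p = 0.00029). MET1, which maintains methylation at CG sites, fell by 0.44 ± 0.09 SE on the log2 scale (adjusted p = 0.0059), from 51.4, 52.8 and 49.0 to 35.5, 40.6 and 37.1 CPM. VIM1, which binds hemimethylated DNA, fell by 0.45 ± 0.09 SE (adjusted p = 0.0048). In all 3 genes every mutant library was below every WT library. On spermidine CMT3 differed by -0.26 (adjusted p = 0.029) and MET1 by -0.05 (adjusted p = 0.77), and the interaction with the medium was not called for either (adjusted p = 0.10 for both).

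These genes are most active in dividing cells. Of 36 tested members of the cell cycle and replication list, 12 were lower (33.3%), with a median log2 fold change of -0.28 over the list against 0.01 over all tested genes. The count was 6 without WT replicate 1, 4 without WT replicate 2 and 5 without mutant replicate 1 or 3, and it was 4 when only the 6 mock libraries were fitted. CDKB1;1, a cyclin-dependent kinase of the G2 phase, was at 5.71, 6.95 and 5.62 CPM in the mutant against 8.97, 8.88 and 8.0 CPM (log2 fold change -0.50 ± 0.11 SE, adjusted p = 0.0092). The gene PRL, the MCM7 subunit of the replicative helicase, fell by 0.41 ± 0.08 SE (adjusted p = 0.0034). Of the DNA damage genes, WEE1, a checkpoint kinase, fell by 0.58 ± 0.12 SE (adjusted p = 0.0066), while GMI1, which is induced by DNA breaks, was higher at 8.28, 9.67 and 8.75 CPM against 4.75, 6.22 and 5.91 CPM (adjusted p = 0.0036). The share of dividing cells was not measured, and its part in these results was not tested.

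The circadian clock list held the highest share of rises. The plant clock is a network of mutual repressors in which morning and evening genes follow each other through the day, and the time of harvest is not given in the labels. Of 23 members, all tested, 12 were higher on mock medium (52.2%) and the other 11 were not called. The median log2 fold change was 0.34, and the count was 7 without WT replicate 1. PRR9, a pseudo-response regulator of the morning, was at 11.1, 5.95 and 11.1 CPM in the mutant against 2.49, 1.83 and 2.52 CPM in WT (log2 fold change 2.04 ± 0.26 SE, adjusted p = 0.00021). FKF1, a blue-light receptor that targets CDF proteins for degradation, was at 20.7, 18.5 and 18.3 CPM against 7.23, 10.08 and 10.3 CPM (log2 fold change 1.06 ± 0.21 SE, adjusted p = 0.0043). GI, its partner, was at 44.6, 41.1 and 45.4 CPM against 21.9, 29.6 and 23.3 CPM (log2 fold change 0.81 ± 0.15 SE, adjusted p = 0.0025). In each of these 3 genes the lowest mutant library was above the highest WT library. TOC1, the evening repressor, rose by 0.53 ± 0.09 SE (adjusted p = 0.0020), from 67.9, 69.6 and 78.3 to 102, 102 and 109 CPM. PRR7 rose by 0.78 ± 0.17 SE (adjusted p = 0.0082), BOA by 0.60 ± 0.14 SE (adjusted p = 0.0096) and CDF3, a DOF transcription factor, by 1.02 ± 0.12 SE (adjusted p = 0.00014).

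The promoters of several of these genes hold the evening element, the 9-base site AAAATATCT to which the morning factors CCA1 and LHY bind. It was searched on both strands in the 250 bases before each annotated gene start, and 5 of the 12 clock genes called higher had it (41.7%). Among all 24990 promoters read, 2.36% had it, as did 3.57% of those of genes called higher and 2.15% of those of genes called lower. These clock genes are known carriers of the element, so the count describes the promoters and says nothing about the factors. The matches are shown in TAIR10.1 on each gene's strand, 5′ to 3′, with the element in capitals in either orientation.
TOC1 (chr5:24674786-24674846, plus strand): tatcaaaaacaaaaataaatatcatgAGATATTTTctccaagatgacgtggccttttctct
PRR5 (chr5:8358699-8358759, minus strand): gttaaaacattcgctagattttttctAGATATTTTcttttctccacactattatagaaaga
PCL1 (chr3:17182963-17183023, plus strand): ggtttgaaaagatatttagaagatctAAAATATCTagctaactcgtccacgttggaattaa
BOA (chr5:24003819-24003879, plus strand): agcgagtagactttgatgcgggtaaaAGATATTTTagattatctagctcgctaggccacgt
FKF1 (chr1:25508427-25508487, plus strand): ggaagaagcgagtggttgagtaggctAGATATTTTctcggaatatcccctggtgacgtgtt
COR27 (chr5:17199915-17199975, minus strand): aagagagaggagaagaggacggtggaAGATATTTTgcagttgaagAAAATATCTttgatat
COR27, a cold and clock regulated gene of the cold list, carries the element in both orientations; it was at 20.5, 13.3 and 20.2 CPM in the mutant and 6.17, 8.28 and 12.4 CPM in WT, and its call (adjusted p = 0.027) was lost in 4 of the 6 fits that left out a library. PRR5, at 21.2, 22.3 and 23.2 against 10.7, 12.2 and 15.5 CPM, lost its call (adjusted p = 0.029) in 5 of those fits, and PCL1 (adjusted p = 0.044), at 56.8, 37.9 and 43.0 against 36.3, 33.0 and 36.2 CPM, in 5. Over all 17 alternative fits PCL1 lost its call in 9.

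Clock genes did not keep this direction on spermidine. There 6 members were higher and 5 lower, where 10.9% and 7.32% of all tested genes were, and for 7 members the genotype difference itself differed between media (genotype by medium interaction, adjusted p under 0.05, a call that 5.11% of all tested genes received). PRR9 was at 5.15, 5.44 and 7.46 CPM in the mutant against 22.4, 27.5 and 16.4 CPM in WT on spermidine, a change of -1.88 on the log2 scale and an interaction of -3.92 ± 0.36 SE (adjusted p = 4.2e-05). CDF3 turned in the same way, at 24.0, 30.5 and 27.1 against 67.5, 71.5 and 55.3 CPM, with an interaction of -2.27 ± 0.17 SE (adjusted p = 1.3e-05). TOC1 and FKF1 were higher in the mutant on both media, by 0.74 and 0.84 on spermidine. In mtn1-1mtn2-5 on mock medium, against the same WT libraries, 1 of the 23 members was higher and the median was -0.08, where 3.37% of all tested genes were higher and 4.33% lower.

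**Figure D3:**
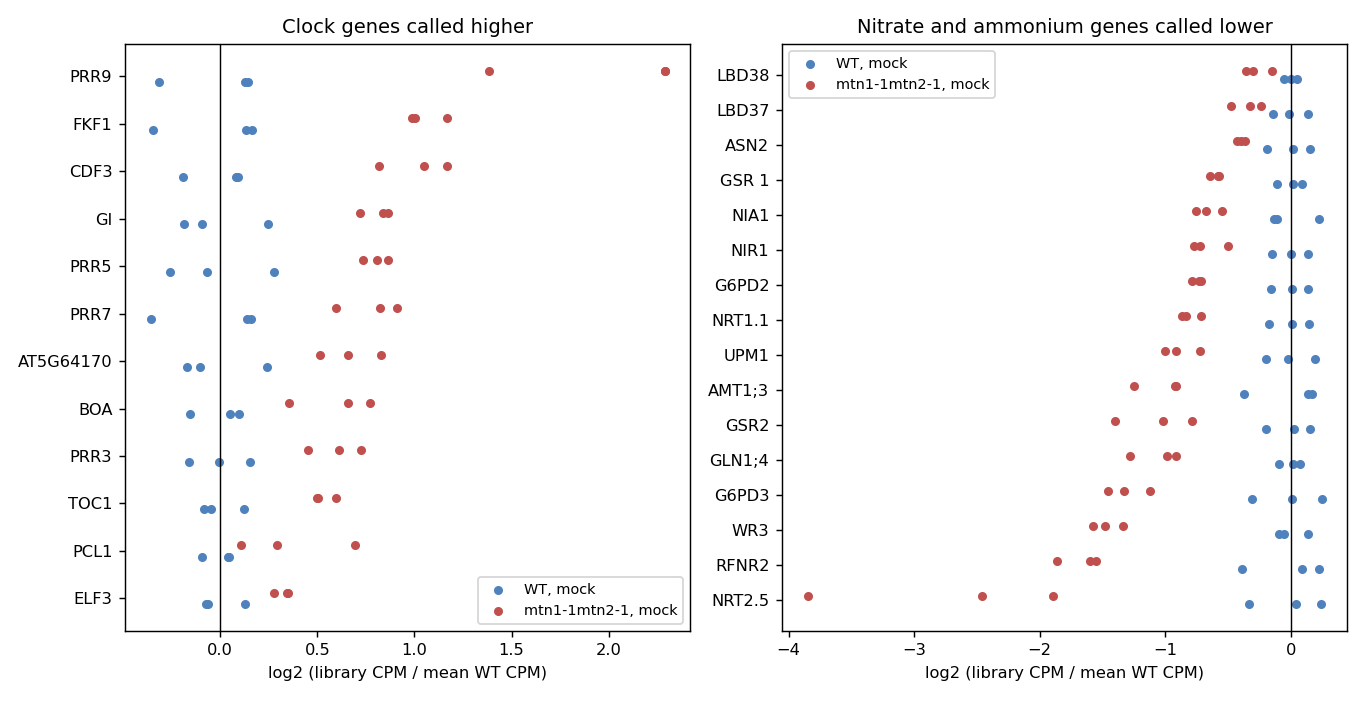
Level of each called gene in each mock library, as the log2 ratio of its CPM to the mean of the 3 WT libraries, for clock genes called higher (left) and nitrate and ammonium genes called lower with a WT mean of at least 1 CPM (right). Every mutant point (red) of PRR9 lies to the right and every mutant point of RFNR2 to the left of all WT points (blue) of that gene.

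Among the 34 lists, that of nitrate and ammonium uptake and assimilation had the highest share of falls. Nitrate enters through transporters of the NRT1 and NRT2 families, is reduced by nitrate and nitrite reductase and is built into glutamine, and in roots the electrons come from NADPH made by the oxidative pentose phosphate pathway. Of 38 tested members 17 were lower (44.7%), the other 21 were not called, and the median log2 fold change was -0.37. The count stayed between 14 and 19 in the fits that left out a library. On spermidine 6 members were higher (15.8%) and 8 lower (21.1%), against 10.9% and 7.32% of all tested genes, with a median of -0.07. The interaction was called for 7 members (18.4%, against 5.11% of all tested genes), each with a higher difference on spermidine. In mtn1-1mtn2-5 on mock medium 1 member was higher and 1 lower (2.63% each, against 3.37% and 4.33% of all tested genes), with a median of -0.16. RFNR2, the root-type ferredoxin reductase, was at 57.1, 59.1 and 47.4 CPM in the mutant against 203, 184 and 132 CPM (log2 fold change -1.67 ± 0.24 SE, adjusted p = 0.00056). FD3, a root-type ferredoxin that is not on the list, was at 51.5, 52.6 and 51.3 CPM against 125, 120 and 93.1 CPM (log2 fold change -1.12 ± 0.13 SE, adjusted p = 0.00015). G6PD3, a plastid glucose-6-phosphate dehydrogenase, was at 23.65, 20.6 and 18.8 CPM against 61.2, 51.9 and 41.7 CPM (log2 fold change -1.30 ± 0.20 SE, adjusted p = 0.00079). In each of these the WT libraries were all above the mutant libraries.

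Transporters fell as well. WR3, the NRT3.1 partner protein of NRT2 transporters, was at 14.7, 12.5 and 13.3 CPM against 40.8, 34.7 and 35.8 CPM (log2 fold change -1.46 ± 0.23 SE, adjusted p = 0.00095). NRT1.1, a nitrate transporter and sensor, fell by 0.80 ± 0.14 SE (adjusted p = 0.0022), from 306, 336 and 270 to 170, 185 and 167 CPM. NRT2.5, a high-affinity transporter of nitrogen-starved plants, was at 0.50, 0.337 and 0.129 CPM against 1.91, 1.47 and 2.19 CPM (adjusted p = 0.0032). Among the enzymes, the nitrate reductase gene NIA1 fell by 0.66 ± 0.12 SE (adjusted p = 0.0024) and the nitrite reductase gene NIR1 by 0.66 ± 0.15 SE (adjusted p = 0.0096). The cytosolic glutamine synthetase GSR2, one of the most abundant transcripts that fell, was at 683, 581 and 446 CPM against 1196, 1306 and 1027 CPM (log2 fold change -1.04 ± 0.21 SE, adjusted p = 0.0043). GLN1;4, a second glutamine synthetase, fell by 1.05 ± 0.12 SE (adjusted p = 0.00013).

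Some root-expressed genes fell in the same libraries. Of 24 root markers 8 were lower (33.3%), and 5 without WT replicate 1, WT replicate 2, mutant replicate 1 or mutant replicate 3. The summed level of the 24 markers was 346 to 411 CPM in the mutant libraries and 404 to 485 CPM in WT, and no root marker was at 0 in either group. RHD6, a root hair regulator, was at 1.09, 1.44 and 0.940 CPM against 2.37, 2.82 and 2.21 CPM (log2 fold change -1.09 ± 0.19 SE, adjusted p = 0.0018). EIR1, the auxin efflux carrier PIN2 of the root tip, was at 5.83, 5.77 and 8.80 CPM against 13.4, 16.7 and 15.1 CPM (log2 fold change -1.15 ± 0.14 SE, adjusted p = 0.00016). TIP4;1, a vacuolar aquaporin, fell by 1.21 ± 0.12 SE (adjusted p = 2.4e-05), from 23.2, 22.7 and 18.4 to 9.01, 9.71 and 9.16 CPM. Of 16 tested shoot markers 4 were lower (25%) and 1 higher (6.25%), where 8.12% and 7.61% of all tested genes were. Their summed level was 558 to 594 against 647 to 761 CPM, and 2 were lower without WT replicate 1, WT replicate 2 or mutant replicate 3. SPCH, which starts the stomatal lineage, was at 2.51, 3.29 and 2.61 CPM against 4.56, 4.76 and 4.53 CPM (adjusted p = 0.010), while FMA, which acts at the end of that lineage, was higher at 25.7, 26.4 and 23.9 CPM against 17.599, 16.5 and 18.9 CPM (adjusted p = 0.00050). Flower and pollen markers summed to 4.42 to 5.38 CPM in the mutant and 3.17 to 6.86 CPM in WT libraries. Of 13 seed genes 4 were tested and none was called, and 7 were at 0 in every WT library. Seed genes summed to 0.362 to 2.18 CPM in the mutant and 0.239 to 0.327 CPM in WT. These sums are near the floor, since 3 fragments of 1 gene are about 0.066 CPM in WT. The part of root content in the nitrate result was not tested.

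Uptake genes for other nutrients showed fewer calls. Of 27 tested genes of the phosphate list 4 were lower (14.8%) and 1 higher (3.7%). PHT1;4, a phosphate transporter, was at 7.07, 5.79 and 6.09 CPM against 13.8, 18.02 and 14.96 CPM (log2 fold change -1.31 ± 0.19 SE, adjusted p = 0.00070), and PHT1;1 fell by 0.90 ± 0.20 SE (adjusted p = 0.0081). PHO2, which lowers phosphate uptake, rose by 0.44 ± 0.09 SE (adjusted p = 0.0048). In the iron list 7 of 36 members were lower (19.4%) and 1 higher, and the lower count was 3 without WT replicate 1 and 4 without mutant replicate 1. ABCG37, an exporter of phenolics that mobilise iron, was at 57.4, 63.9 and 83.6 CPM against 164, 139 and 115 CPM (adjusted p = 0.0036), and NAS3, a nicotianamine synthase, was higher at 8.01, 8.14 and 10.11 CPM against 1.74, 1.88 and 2.75 CPM (adjusted p = 0.0043). Of 17 tested genes of the copper and zinc list 2 were lower (11.8%) and 1 higher (5.88%). ZIP2, a zinc and manganese transporter, fell by 0.73 ± 0.15 SE (adjusted p = 0.0058).

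Photosynthesis transcripts were called in neither direction. None of 22 light-harvesting genes and none of 30 photosystem and Calvin cycle genes passed the edgeR test. At an unadjusted p under 0.05, 2 members of each list were lower, DESeq2 called 1 light-harvesting gene lower and no gene of the other list, and limma on TPM called none of either. The summed level was 46869 to 46998 CPM for light-harvesting genes in the mutant against 47450 to 55351 CPM in WT, so their ranges did not overlap. For photosystem and Calvin cycle genes it was 52648 to 66687 against 62857 to 65483 CPM. PIF4, a light-repressed growth regulator, was higher at 66.5, 70.1 and 68.6 CPM against 37.9, 47.0 and 34.2 CPM (log2 fold change 0.78 ± 0.17 SE, adjusted p = 0.0065). Of the genes that break down chlorophyll in senescing leaves, NYE1, the stay-green protein, rose by 0.34 ± 0.07 SE (adjusted p = 0.0036) and AT4G11910 by 1.26 ± 0.22 SE (adjusted p = 0.0017). Of 14 tested genes of the senescence list 5 were higher (35.7%) and 4 lower (28.6%). The transcription factor gene NAC042 was lower, at 2.47, 1.89 and 2.36 against 4.99, 4.32 and 5.4 CPM (adjusted p = 0.0050). In the starch and sugar list 5 of 32 members were higher (15.6%) and 1 lower (3.1%), against 7.61% and 8.12% of all tested genes. Its higher count was 2 without WT replicate 1 or mutant replicate 3. It was 3 without WT replicate 2, without mutant replicate 1 or 2, or with only the 6 mock libraries fitted. ISA3, a debranching enzyme, was at 56.3, 49.6 and 56.6 against 33.2, 41.4 and 34.7 CPM (adjusted p = 0.0031), and the branching enzyme SBE2.1 rose by 0.47 ± 0.10 SE (adjusted p = 0.0078).

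Defence genes held more falls than rises. In the salicylic acid list 8 of 26 members were lower (30.8%) and the other 18 were not called, with a median log2 fold change of -0.63. The count was 4 without WT replicate 1, 5 without mutant replicate 1 and 4 without mutant replicate 2. PAD3, the last enzyme of camalexin synthesis, was at 3.99, 3.22 and 5.24 CPM against 16.3, 12.7 and 9.61 CPM (log2 fold change -1.63 ± 0.24 SE, adjusted p = 0.00065). FMO1, which makes N-hydroxypipecolic acid, was at 0.521, 0.131 and 0.891 CPM against 3.58, 3.65 and 3.17 CPM (log2 fold change -2.75 ± 0.63 SE, adjusted p = 0.0099). EDS1, a hub of immune signalling, fell by 0.51 ± 0.11 SE (adjusted p = 0.0085). PAD3 and FMO1 were lower on spermidine as well, by -1.97 and -3.60 on the log2 scale, whereas EDS1 differed there by 0.06 (adjusted p = 0.76; interaction adjusted p = 0.053). In the jasmonate list 2 of 30 members were higher (6.67%) and 4 lower (13.3%), against 7.61% and 8.12% of all tested genes. The 2 higher were the storage protein genes VSP1 and VSP2, up by 0.96 ± 0.16 SE (adjusted p = 0.0015) and 1.05 ± 0.17 SE (adjusted p = 0.0011). Among the 4 lower was the chitinase gene HCHIB, down by 0.82 ± 0.19 SE (adjusted p = 0.0095). The abscisic acid and drought list had 2 of 26 members higher (7.69%) and 1 lower (3.85%). Of these P5CS1, which makes proline under drought, was at 196, 163 and 233 CPM against 92.4, 87.9 and 92.6 CPM (log2 fold change 1.12 ± 0.24 SE, adjusted p = 0.0062). The cold list had 4 of 19 members higher (21.1%) and 1 lower (5.26%). Of these GolS1, a galactinol synthase of cold and drought, was at 27.1, 27.2 and 31.5 CPM against 11.6, 11.6 and 12.01 CPM (log2 fold change 1.28 ± 0.13 SE, adjusted p = 3.4e-05).

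Families were counted by shared symbol, and those given here were chosen after their values were seen, for their share of falls. Of 62 tested WRKY transcription factor genes, 12 were lower (19.4%) and the other 50 were not called. WRKY51 was at 1.42, 1.18 and 1.56 CPM against 2.96, 2.43 and 2.88 CPM (log2 fold change -0.99 ± 0.21 SE, adjusted p = 0.0055), and WRKY27 fell by 0.75 ± 0.13 SE (adjusted p = 0.0016). WRKY proteins bind the W-box, and TTGACC or TTGACT on either strand stood in the 250 bases before 35.9% of genes called lower, 24.1% of genes called higher and 28.3% of all tested genes. In the salicylic acid list it stood before 1 of the 8 lower members and 4 of the other 18. Of 27 tau-class glutathione transferases, which conjugate toxic and oxidised compounds, 9 were lower (33.3%). GSTU22 was at 14.6, 14.4 and 19.4 CPM against 45.6, 42.1 and 35.8 CPM (log2 fold change -1.35 ± 0.28 SE, adjusted p = 0.0054). Of 54 UGT glycosyltransferases 17 were lower (31.5%) and 4 higher, and UGT76B1, which glycosylates immune signals, was at 12.7, 12.1 and 15.96 CPM against 36.6, 29.9 and 25.7 CPM (log2 fold change -1.18 ± 0.18 SE, adjusted p = 0.00072). Ribosomal protein genes of the RPL family had 7 of 22 members lower (31.8%), with RPL3B down by 0.75 ± 0.12 SE (adjusted p = 0.00097). Among oxidative stress genes the catalase gene CAT3 (AT1G20620) went the other way, at 1661, 1762 and 2039 CPM against 740, 1076 and 1050 CPM (log2 fold change 0.93 ± 0.15 SE, adjusted p = 0.0012).

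Several phenylpropanoid enzymes were lower. Phenylalanine is turned by PAL and C4H into the precursor of both lignin and flavonoids, and chalcone synthase starts the flavonoid branch. PAL1 was at 243, 295 and 245 CPM against 422, 403 and 360 CPM (log2 fold change -0.60 ± 0.09 SE, adjusted p = 0.00098). C4H was at 227, 236 and 228 CPM against 345, 331 and 304 CPM (log2 fold change -0.51 ± 0.06 SE, adjusted p = 0.00015). TT4, the chalcone synthase, was at 178, 190 and 220 CPM against 402, 455 and 358 CPM (log2 fold change -1.05 ± 0.13 SE, adjusted p = 0.00015). All mutant libraries were below all WT libraries for these 3 enzymes. In all, 6 of 18 lignin genes (33.3%) and 7 of 22 flavonoid genes (31.8%) were lower, and 2 flavonoid genes were higher. IRX12, a laccase of lignified walls, rose by 0.47 ± 0.10 SE (adjusted p = 0.0049), and ACL5, the thermospermine synthase that limits xylem formation, was at 61.9, 63.9 and 60.5 CPM against 42.1, 41.2 and 39.5 CPM (log2 fold change 0.60 ± 0.10 SE, adjusted p = 0.0018). The vascular list had 7 of 32 members higher (21.9%) and 1 lower (3.1%), against 7.61% and 8.12% of all tested genes. Its higher count was 4 without WT replicate 1 and 3 when only the 6 mock libraries were fitted.

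In absolute level, the largest rise was that of TGG1, a myrosinase that cleaves glucosinolates, at 4204, 3678 and 4277 CPM against 2608, 2702 and 2628 CPM (log2 fold change 0.62 ± 0.09 SE, adjusted p = 0.00073). EXT3, an extensin of the cell wall, had the largest fall, from 2045, 2361 and 1794 to 1026, 1036 and 1130 CPM (log2 fold change -0.96 ± 0.15 SE, adjusted p = 0.0010). A transcript on its opposite strand, AT1G21313, overlaps EXT3, and without strand information the 2 cannot be told apart. The same limit holds for other named genes that overlap a gene on the opposite strand. Among them are AT2G34130 (2877 shared bases), BOA (1896), HCHIB (1579), PCL1 (1507) and WRKY53 (341). HA2, a proton pump of the plasma membrane, was at 606, 634 and 661 CPM against 1191, 1195 and 949 CPM (log2 fold change -0.81 ± 0.13 SE, adjusted p = 0.0011). Enzymes of central carbon metabolism fell beside it. TRA2, a transaldolase of the pentose phosphate pathway, was at 121, 121 and 119 CPM against 276, 265 and 212 CPM (log2 fold change -1.06 ± 0.11 SE, adjusted p = 3.9e-05). ENO1, an enolase, fell by 1.08 ± 0.13 SE (adjusted p = 0.00017) and FBA8, an aldolase, by 0.82 ± 0.12 SE (adjusted p = 0.00070).

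Among the flowering time genes, FLC was higher. It encodes a MADS-box repressor of flowering, which is silenced in Col-0 seedlings by the autonomous pathway. FLC was at 9.71, 10.49 and 9.69 CPM in the mutant libraries against 1.64, 1.57 and 2.1 CPM in WT (log2 fold change 2.49 ± 0.18 SE, adjusted p = 8.5e-07). On spermidine it was at 5.41, 4.97 and 4.62 CPM against 3.09, 2.2 and 1.87 CPM, a smaller rise of 1.07 ± 0.17 SE (interaction -1.42 ± 0.24 SE, adjusted p = 0.0028). Neither comparison had overlapping groups. Against the same WT libraries, mtn1-1mtn2-5 differed by 3.0 on mock medium. A long noncoding RNA locus, AT5G01675, overlaps FLC on the other strand, and its reads cannot be told from those of FLC without strand information.

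The same genotype contrast on spermidine, made with 6 other libraries, called 2753 genes higher (10.9%) and 1844 lower (7.32%). Without WT replicate 1 of those libraries the counts were 1777 and 1121, without WT replicate 3 1890 and 1121, without mutant replicate 1 1757 and 1102, and without mutant replicate 2 2030 and 1091. Of the 1917 genes higher on mock medium, 710 (37.0%) were also called higher on spermidine, 51 were called lower and 80.4% had the same sign. Of the 2047 genes lower on mock medium, 782 (38.2%) were called lower again, 120 were called higher and 83.5% had the same sign. Across all tested genes the 2 log2 fold changes had a Pearson r of 0.53 and a Spearman rho of 0.36, a description over genes, which are not independent replicates. The interaction was called for 1289 genes, 900 (3.57%) with a higher and 389 (1.54%) with a lower difference on spermidine; without mutant mock replicate 3 it was called for 835 and without mutant spermidine replicate 1 for 856. By limma on log2(TPM + 1) 843 were higher and 771 lower, and by DESeq2 on the counts 1328 were higher and 781 lower. WRKY53, a senescence and stress regulator, shows the turn among the 120 genes, at 6.69, 8.16 and 3.72 CPM in the mutant against 12.5, 13.4 and 19.997 CPM on mock medium and at 14.4, 12.7 and 7.14 against 3.14, 3.68 and 2.93 CPM on spermidine. AT5G15950, an adenosylmethionine decarboxylase family gene of polyamine synthesis, shows the opposite turn, with a log2 fold change of 1.12 (adjusted p = 0.00021) on mock medium and -0.51 (adjusted p = 0.021) on spermidine.

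**Figure D4:**
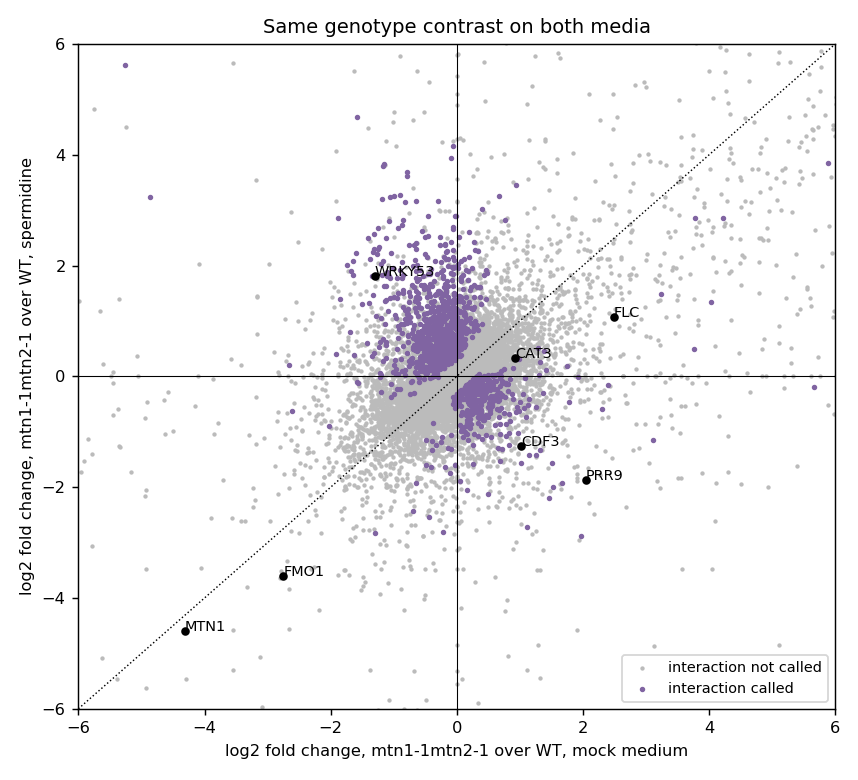
Log2 fold change of mtn1-1mtn2-1 over WT on mock medium (horizontal) and on spermidine (vertical) for each tested gene; purple points are genes with a called genotype by medium interaction, the dotted line marks equal change, and 370 genes lie outside the axes. MTN1 and FMO1 lie near the line, while PRR9 and CDF3 change sign downward and WRKY53 upward.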

How the data were processed

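The polyA RNA-seq libraries were trimmed with Trim Galore, aligned with STAR and quantified with StringTie on TAIR10, per the submitters' processing notes, which give no versions here. The authors deposited expected counts per gene as whole numbers and, in a separate table, TPM values, which are scaled for transcript length. The deposited counts are larger than fragments: 1 fragment adds about 3.32 units, estimated from the spacing of low values (41.95% on multiples against 30% for an even spread), so counting error is larger than the totals imply. Gene names, types and coordinates came from TAIR10.1, in which 37051 of the 37336 genes in the count table were found, and whether counting used strand is not given in the sources used here.

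All 18 seedling libraries (6 groups of 3) were fitted in one model with edgeR 4.0.16 in R 4.3.3 (filterByExpr, TMM, quasi-likelihood F test, Benjamini-Hochberg over 25201 genes), because more libraries steady the estimate of spread. CPM are TMM-normalised. Calls were made at an adjusted p of 0.05. Nothing in the labels says that replicates came from separate cultures, so p-values measure the spread between these samples, which may be technical. The labels name 2 sequencing centres without saying which library went where. On simulated counts for this comparison, over 24468 genes, 157 of 200 genes changed 2-fold were recovered with the right sign, and 8 calls were false. The 200 genes were drawn from those well above the floor, and are a far smaller share than the 15.7% called in the data. These figures therefore do not cover loci near 3 fragments.

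Named genes were members of the 34 lists, the strongest, most abundant and most significant calls, and members of families with at least 20 tested genes. Members and lists were chosen with earlier results of these data known. Alternatives were DESeq2 1.42.0, limma 3.58.1 on log2(TPM + 1) and log2(TPM + 0.1), other filters, scalings and sets of libraries, and each library left out in turn. Flower bud libraries were not used here.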

Additional observations from a re-analysis of the deposited data

Results flagged for a closer look

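The genotype difference itself differed between the media for 1289 genes (edgeR quasi-likelihood test of the genotype by medium interaction, adjusted p under 0.05). Among the genes named above, the difference on spermidine minus that on mock medium was -3.92 on the log2 scale for PRR9, -2.27 for CDF3, -1.08 for GI and -0.91 for PRR7 of the clock list. It was -1.42 for FLC, -0.77 for GolS1, -0.92 for AT5G26270, -1.63 for AT5G15950 and -1.61 for SAUR15. It was 3.12 for WRKY53 and 0.68 for TT4. For MTN2 (AT4G34840), which was near 0 in all mutant libraries, it was -1.02. No explanation was tested for any of these.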

How the results depend on the processing

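Of the 85 named genes called on mock medium and checked, 77 kept their call under every alternative. Of the same 85, 7 lost it in at least 1 fit that left out a library, and none changed direction. Leaving out 1 library gave 2173 to 3466 calls on mock medium (1029 to 1648 higher, 1100 to 1818 lower), 2859 to 5214 on spermidine (1757 to 2820 higher, 1091 to 2394 lower) and 835 to 1761 for the interaction (211 to 596 lower). Changes of at least 2-fold on mock medium numbered 549 with limma on log2(TPM + 0.1), 313 with log2(TPM + 1) and 616 with a mean of at least 50 counts, and 536 on spermidine with log2(TPM + 1). Without the mtn1-1mtn2-5 libraries, 1239 genes were higher on mock medium. With only the compared groups, spermidine gave 1842 calls (1279 higher, 563 lower). The interaction gave 2109 calls by DESeq2 (781 lower), 724 and 771 lower by limma with 0.1 and 1 added, and 854 (210 lower) with only the compared groups or without mtn1-1mtn2-5. The excess of detected pseudogene loci in the mutant, 388 on mock medium and 145 on spermidine, was 501 and 209 with a floor of 1 fragment and 207 and 67.3 with 10, floors chosen after seeing the data. The W-box excess among coding genes called lower was 7.15 percentage points in 250 bases and 4.50 in 100. Replicate numbers did not pair the samples (correlations -0.031, 0.012 and 0.021), and the fit with a replicate block called 3462 genes on mock medium, 4155 on spermidine and 1086 for the interaction. The cause of these shifts was not tested. Depth limits statements on loci near 3 fragments.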
